A study of Mus musculus with 12 samples.

Results

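The SR splicing factors examined here were the 10 genes Srsf1 to Srsf7 and Srsf9 to Srsf11, chosen by gene symbol among the 12752 genes of the deposited count table. All 10 were found and all 10 passed the filter on low counts. RNA came from the tibialis anterior, a lower leg muscle, of male C57BL/6 mice that had received adeno-associated viral vectors at 8 weeks of age. The 4 groups of 3 libraries were DUX_DOX (AAV:TET and AAV:Dux, doxycycline chow), EV_DOX (AAV:TET and the empty vector AAV:MCS, doxycycline chow), DUX (AAV:TET and AAV:Dux, normal chow) and EV (AAV:TET and AAV:MCS, normal chow), so every muscle carried AAV:TET. Dux is the mouse counterpart of the transcription factor DUX4 of facioscapulohumeral muscular dystrophy, and its own level is not analysed here, so the vector labels were not checked against it. Doxycycline chow, with 600 mg/kg of the drug, was given from 7 days after injection for 2 or 7 days, and the labels do not say which duration applied. They also name neither the promoter of the transgene nor the animal behind each library, and empty and Dux vectors went into opposite limbs.

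SR proteins carry an RNA recognition motif and a tail rich in arginine and serine. They bind enhancer sequences in exons, recruit the U1 and U2 components of the spliceosome to nearby splice sites, and several also accompany spliced mRNA out of the nucleus. Kinases of the Srpk family phosphorylate the tail in the cytoplasm, which allows nuclear import, and Clk kinases phosphorylate it further in nuclear speckles. SR genes are known to limit their own level by splicing in poison exons, which send the transcript to nonsense-mediated decay. In the GENCODE annotation (release M21, GRCm38) 9 of the 10 genes had at least 1 transcript typed as a decay target, Srsf10 being the exception, and 8 had at least 1 with a retained intron. A count per gene adds all these transcripts together, so it does not separate coding from decay forms.

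The libraries held 11880593 to 13811999 counts, and levels are CPM, counts scaled to a common library size. Fold changes are log2 estimates with standard error (SE) from the edgeR quasi-likelihood test over all 12751 genes tested, with Benjamini-Hochberg adjusted p-values, and a gene was called at an adjusted p below 0.05. The labels do not say that libraries of a group came from separate animals, so p-values measure the spread between these libraries. All 10 skeletal muscle fibre markers examined were measured, and together they stood at 120100 to 136300 CPM in DUX_DOX, 144500 to 156300 CPM in EV_DOX, 143400 to 163000 CPM in DUX and 152500 to 158100 CPM in EV. In whole muscle, fewer fibres and less RNA per fibre cannot be told apart. The 20 macrophage and monocyte markers summed to 349 to 504 CPM in DUX_DOX, 137 to 194 CPM in EV_DOX, 203 to 223 CPM in DUX and 146 to 221 CPM in EV. Tenocyte markers were far higher in EV_DOX 1 (547 CPM) and EV 3 (591 CPM) than in the other 10 libraries (42.2 to 138 CPM).

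In all, 3 genes of the family were called in the main comparison, and the window around the start of each is printed here because these are the members whose level differed. Each runs from 250 bases before to 50 bases after a transcript start, 5′ to 3′, from RefSeq on GRCm38.p6, and capitals mark matches to the motifs searched. Srsf4 is at chr4:131873387-131873686 on the plus strand, Srsf7 at chr17:80207256-80207555 on the minus strand and Srsf11 at chr3:158036557-158036856 on the minus strand.
Srsf4: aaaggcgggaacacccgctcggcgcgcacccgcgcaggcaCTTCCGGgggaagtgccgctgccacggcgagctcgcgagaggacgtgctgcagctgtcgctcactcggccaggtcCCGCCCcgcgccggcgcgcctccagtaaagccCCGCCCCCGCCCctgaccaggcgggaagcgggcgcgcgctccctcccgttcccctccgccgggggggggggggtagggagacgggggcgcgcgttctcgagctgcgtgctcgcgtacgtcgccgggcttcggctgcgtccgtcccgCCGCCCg
Srsf7: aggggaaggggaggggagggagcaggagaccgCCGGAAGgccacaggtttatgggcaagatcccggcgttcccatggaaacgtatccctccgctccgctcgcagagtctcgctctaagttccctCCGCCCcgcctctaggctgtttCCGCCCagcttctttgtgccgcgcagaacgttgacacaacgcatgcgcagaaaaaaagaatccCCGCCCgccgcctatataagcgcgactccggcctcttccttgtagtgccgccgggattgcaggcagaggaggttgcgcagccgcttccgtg
Srsf11: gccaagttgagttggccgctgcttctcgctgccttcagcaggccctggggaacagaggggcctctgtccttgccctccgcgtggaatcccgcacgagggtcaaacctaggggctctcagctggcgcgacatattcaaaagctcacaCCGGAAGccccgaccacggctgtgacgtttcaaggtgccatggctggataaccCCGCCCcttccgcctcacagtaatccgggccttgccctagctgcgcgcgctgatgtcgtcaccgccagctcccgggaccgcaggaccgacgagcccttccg

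The motifs were searched on both strands and no pair of matches overlapped in these 3 windows. The matches were GC boxes (GGGCGG), with 4 in Srsf4, 3 in Srsf7 and 1 in Srsf11, and an ETS motif (CCGGAAG), with 1 in each. A GC box was present in 9 of the 10 SR windows and in 35.7% of all 32851 windows of the same length. The ETS motif was present in 4 SR windows, those of Srsf4, Srsf5, Srsf7 and Srsf11, and in 8.86% of all windows. The SR windows were rich in G and C, with a median of 68.7% against 52.7% over all windows. The Dux motif (in 0.207% of all windows), a cAMP response element (TGACGTCA, 1.79%), a C/EBP-ATF element (TGATGNAA, 3.97%) and the heat shock element (0.603%) had a match in 0 of the 10 SR windows. The NRF1 motif (4.60%) had a match in Srsf2 and Srsf9, and the CCAAT box (CCAAT, 37.4%) in Srsf1, Srsf2, Srsf3 and Srsf10. These matches describe letters in the windows and show no binding.

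Muscle expressed the SR genes at unequal levels, and their order per kilobase of annotated exon was the same in 3 of the 4 groups. By this measure Srsf5 and Srsf2 stood highest. Srsf5 had 29.8 ± 2.03 CPM per kilobase in DUX_DOX, 32.1 ± 2.12 in EV_DOX, 32.7 ± 0.517 in DUX and 31.0 ± 2.68 in EV (SD, n = 3). Srsf2, whose protein is found in nuclear speckles, had 30.1 ± 1.90 CPM per kilobase in DUX_DOX, 27.6 ± 1.01 in EV_DOX, 27.9 ± 0.638 in DUX and 27.1 ± 0.719 in EV. Srsf6 (16.9 ± 1.30 in EV) and Srsf1 (14.0 ± 0.875 in EV) followed, then Srsf11 (8.77 ± 0.407), Srsf4 (7.57 ± 0.535), Srsf7 (5.86 ± 0.290), Srsf3 (5.14 ± 0.491), Srsf9 (4.22 ± 0.301) and Srsf10 (3.52 ± 0.200). In EV the libraries of neighbours in this order overlapped only between Srsf7 and Srsf3.

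The order was the same in EV_DOX and DUX as in EV. In DUX_DOX Srsf2 stood above Srsf5, although their libraries overlapped, and Srsf11 took the seventh place, against the fifth in the other groups, with 6.81 ± 0.691 CPM per kilobase below Srsf4 (9.33 ± 0.247) and Srsf7 (8.10 ± 0.787). Srsf11 and Srsf7 overlapped there, whereas Srsf4 lay above both. The place of a gene also depended on the length used. With the length of the principal coding transcript in place of all exons, Srsf11 took place 3 in EV and Srsf9 came last. In EV the libraries of Srsf11 then overlapped those of Srsf6, and the libraries of Srsf9 those of Srsf10. By that length Srsf5 stayed above Srsf2 in DUX_DOX (75.89 against 46.95 CPM per kilobase), without overlap. Srsf11 then held place 4 in DUX_DOX, EV_DOX and DUX alike. Summed over the 10 genes, the level was 572 ± 14.2 CPM in DUX_DOX, 556 ± 24.5 CPM in EV_DOX, 575 ± 15.1 CPM in DUX and 559 ± 25.9 CPM in EV, with overlapping libraries in all 4 groups.

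**Figure D1:**
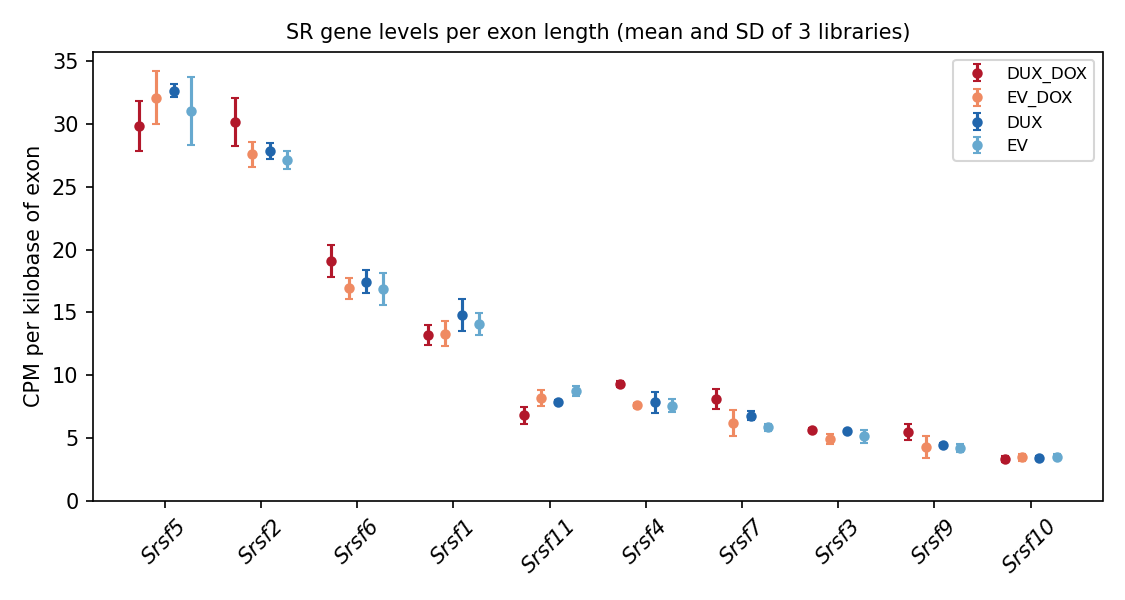
Level of each SR gene as CPM per kilobase of annotated exon (vertical axis, linear from 0), mean and SD of 3 libraries for DUX_DOX, EV_DOX, DUX and EV. Genes are ordered by their EV mean, from Srsf5 (31.0) to Srsf10 (3.52). The DUX_DOX mean is the highest of the 4 groups for Srsf4 (9.33), Srsf7 (8.10), Srsf2, Srsf3, Srsf6 and Srsf9. It is the lowest for Srsf11 (6.81), Srsf1, Srsf5 and Srsf10.

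The main comparison, DUX_DOX against EV_DOX, set the Dux vector against the empty vector on doxycycline chow. Srsf4 and Srsf7 rose, Srsf11 fell, and the other 7 genes were not called, with estimates between -0.11 and 0.36. The 3 called genes were 30.0% of the family, a share near the 25.3% called among all genes tested. The split of 2 higher and 1 lower stood beside 14.9% of all genes higher and 10.3% lower. The median log2 fold change of the 10 genes was 0.15, and that of all genes tested was -0.01. At an unadjusted p below 0.05 there were 6 of the 10 genes, against 37.8% of all genes. In CPM the groups did not overlap for 4 of the 10 genes, 3 higher and 1 lower, against 38.7% of all genes, with 21.4% higher and 17.3% lower. The count of called SR genes was 0 with only the groups compared and without DUX_DOX 3, and 1 without DUX_DOX 1, EV_DOX 1 or EV_DOX 2. Among all genes, 3224 were called in the main fit, 2376 with only the groups compared and 2109 without DUX_DOX 3. Without DUX_DOX 1, EV_DOX 1 and EV_DOX 2 they were 2979, 3184 and 2832.

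**Figure D2:**
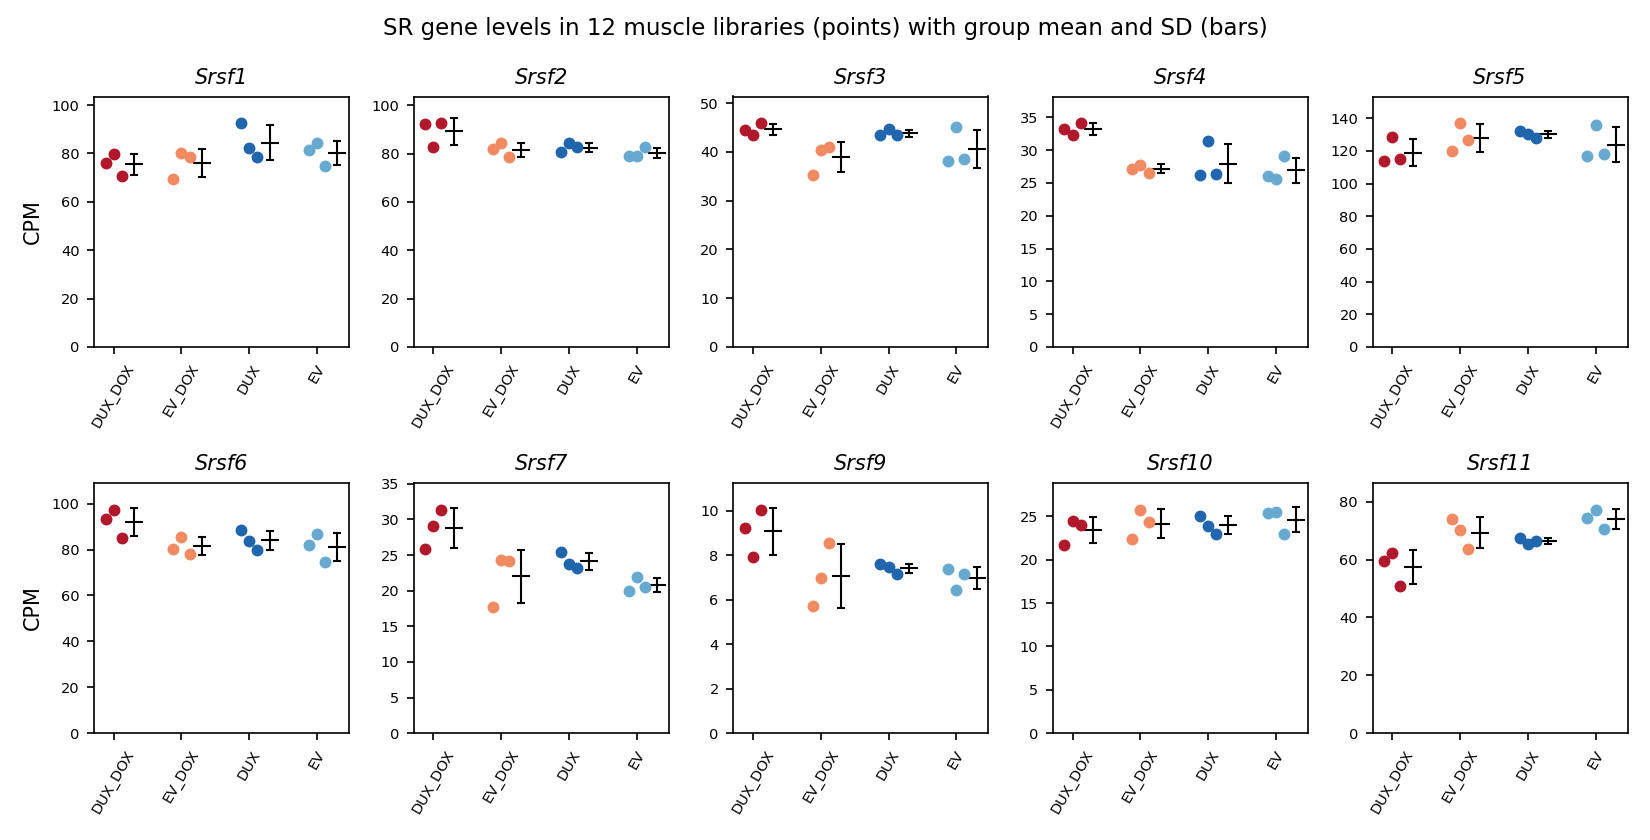
Level of each SR gene in CPM (vertical axes, linear from 0, scaled per gene) in the 12 libraries, as points by group, with the group mean and SD beside them. The DUX_DOX points of Srsf4 (32.3 to 34.1 CPM) and Srsf7 (25.8 to 31.4 CPM) lie above all other points of the gene, and those of Srsf11 (51.0 to 62.2 CPM) below all others.

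Srsf4, Srsf5 and Srsf6 encode SR proteins with a pair of RNA recognition motifs. Srsf4 (ENSMUSG00000028911, chromosome 4, 131873617 to 131901706, plus strand) had 33.2, 32.3 and 34.1 CPM in DUX_DOX 1 to 3, against 27.2, 27.8 and 26.5 CPM in EV_DOX 1 to 3. It had 26.2, 31.3 and 26.4 CPM in DUX and 26.1, 25.7 and 29.2 CPM in EV. All DUX_DOX libraries were above all 9 others, which ran up to 31.3 CPM. Its rise was 0.29 on the log2 scale (SE 0.09, adjusted p = 0.0261), or 1.22-fold, with a 95% interval from 1.07 to 1.40. The call was lost in the DESeq2 Wald test (adjusted p = 0.0548), with only the groups compared (0.0555) and without DUX_DOX 1 (0.0566), DUX_DOX 3 (0.0828), EV_DOX 2 (0.0664) or EV_DOX 3 (0.0794), in a range from 0.0214 to 0.0828 over the 18 alternatives, all with a positive sign. The genes A930004J17Rik and Gm12992 overlap Srsf4 in the annotation, and their means were at most 1.62 CPM in any group.

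Srsf6 had 93.3, 97.4 and 85.2 CPM in DUX_DOX, against 80.5, 85.7 and 77.9 CPM in EV_DOX, and the groups overlapped. Its log2 fold change was 0.18 (95% interval 0.00 to 0.35, adjusted p = 0.132). Srsf5 had 114, 128 and 115 CPM in DUX_DOX, against 120, 137 and 127 CPM in EV_DOX. These libraries overlapped too, and the estimate was -0.11 (-0.29 to 0.08, adjusted p = 0.385). Of these 3 related genes only Srsf4 passed the test, and whether its change differed from that of the others was not tested.

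Srsf3 and Srsf7 encode small SR proteins with a single RNA recognition motif that also act as adaptors of mRNA export, and Srsf7 carries a zinc knuckle as well. Srsf7 (ENSMUSG00000024097, chromosome 17, 80200080 to 80207307, minus strand) had 25.8, 29.1 and 31.4 CPM in DUX_DOX, against 17.7, 24.2 and 24.1 CPM in EV_DOX. It had 25.5, 23.7 and 23.2 CPM in DUX and 20.0, 22.0 and 20.5 CPM in EV. The DUX_DOX libraries were again above the 9 others, and EV_DOX 1 was the lowest of all. Srsf7 rose by 0.39 on the log2 scale (SE 0.12, adjusted p = 0.0262), or 1.31-fold (95% interval 1.10 to 1.56). The call was lost with only the groups compared (0.0789) and without DUX_DOX 2 (0.0732), DUX_DOX 3 (0.111) or EV_DOX 1 (0.0830, where the log2 fold change was 0.25), in a range from 0.0204 to 0.111.

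Srsf3 had 44.5, 43.5 and 45.8 CPM in DUX_DOX, against 35.3, 40.4 and 40.9 CPM in EV_DOX. The groups did not overlap, but the log2 fold change of 0.20 (95% interval 0.02 to 0.38) missed the threshold (adjusted p = 0.104). EV_DOX 1 was the lowest library of Srsf3, Srsf7, Srsf9 and Srsf1, and it was also a library with high tenocyte markers. EV 3, the other library with high tenocyte markers, was the lowest of none of these genes, but it was the lowest of Srsf6. The part of tenocytes in these levels was not tested.

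Srsf11, an SR-related splicing factor, went the other way. The gene (ENSMUSG00000055436, chromosome 3, 158010473 to 158036639, minus strand) had 59.4, 62.2 and 51.0 CPM in DUX_DOX, against 74.1, 70.2 and 63.6 CPM in EV_DOX. It had 67.6, 65.5 and 66.6 CPM in DUX and 74.4, 77.3 and 70.4 CPM in EV. Every DUX_DOX library was below the 9 others. Srsf11 fell, with an estimate of -0.27 (SE 0.09, adjusted p = 0.0357), a level of 0.831 times that of EV_DOX (95% interval 0.730 to 0.945). The call was lost with only the groups compared (0.0915) and without DUX_DOX 1 (0.0508), DUX_DOX 3 (0.147), EV_DOX 1 (0.106) or EV_DOX 2 (0.0606), in a range from 0.0174 to 0.147. Srsf11 has the most annotated transcripts of the family, 19, of which 11 are typed as retained introns and 3 as decay targets. Its neighbour Lrrc40, which starts within 1 kilobase on the other strand, had an estimate of -0.16 (adjusted p = 0.430).

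Srsf1 and Srsf9 are close relatives with a pair of RNA recognition motifs, and Srsf1 is the best studied SR protein, a regulator of splice site choice and translation. Srsf1 had 75.9, 79.7 and 70.7 CPM in DUX_DOX, against 69.4, 80.1 and 78.6 CPM in EV_DOX, and the groups overlapped. Its estimate was -0.01, and the 95% interval of the fold ran from 0.871 to 1.13 (adjusted p = 0.940). Srsf9, with 78 to 130 counts per library, had 9.22, 7.94 and 10.1 CPM in DUX_DOX, against 5.69, 6.97 and 8.53 CPM in EV_DOX. DUX_DOX 2 lay below EV_DOX 3, and the log2 fold change of 0.36 (95% interval 0.04 to 0.68) had an adjusted p of 0.0965. It passed without EV_DOX 3 (0.52, adjusted p = 0.0323), and the range over the alternatives was 0.0323 to 0.299.

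Srsf2 and Srsf10 differed least between libraries. Srsf2 had 92.3, 82.7 and 92.5 CPM in DUX_DOX, against 81.9, 84.4 and 78.5 CPM in EV_DOX, with an estimate of 0.13 (95% interval -0.02 to 0.28, adjusted p = 0.207). DUX_DOX 1 and 3 were its highest libraries, and DUX_DOX 2 was level with EV_DOX. Srsf2 overlaps Mettl23 and Mfsd11 on the other strand, whose estimates were -0.16 and -0.13 (adjusted p = 0.405 and 0.403); the strand setting of the counting is not given in the sources used here. Srsf10, which turns into a splicing repressor when it is dephosphorylated in heat-shocked cells, had 21.7, 24.5 and 24.0 CPM in DUX_DOX, against 22.4, 25.8 and 24.3 CPM in EV_DOX. Its estimate was -0.04 (95% interval -0.23 to 0.15, adjusted p = 0.750).

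Over all 12 libraries the SD of log2 CPM was 0.08 for both Srsf2 and Srsf10, and 1.48% and 1.47% of genes varied less. Srsf7 and Srsf9 varied most in the family, with SDs of 0.23 and 0.22, and 48.0% and 45.1% of genes varied less. The highest library exceeded the lowest 1.77-fold for Srsf7 and Srsf9, 1.51-fold for Srsf11 and 1.18-fold for Srsf2. By the root mean square difference of centred log2 CPM over the 12 libraries, the profile of Srsf7 was nearest to that of Srsf9 among SR genes (0.13), and that of Srsf4 was nearest to Srsf2 (0.09). Among all genes these partners ranked only 229 for Srsf7 and 55 for Srsf4. The genes nearest to Srsf4 of all 12750 others were Gga1 (0.067), Eng (0.070), Arcn1 (0.070), Rhoa (0.072) and Nsf (0.073), against a median of 0.27. The pair Srsf5 and Srsf10 had the smallest difference within the family (0.073), at rank 49 among all genes from Srsf5 and 25 from Srsf10. This measure is small between genes that vary little, and both varied little (SD 0.09 and 0.08). It does not show that they moved together. The SR gene nearest to Srsf11 was Srsf5 (0.15), at rank 1234 among all genes.

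**Figure D3:**
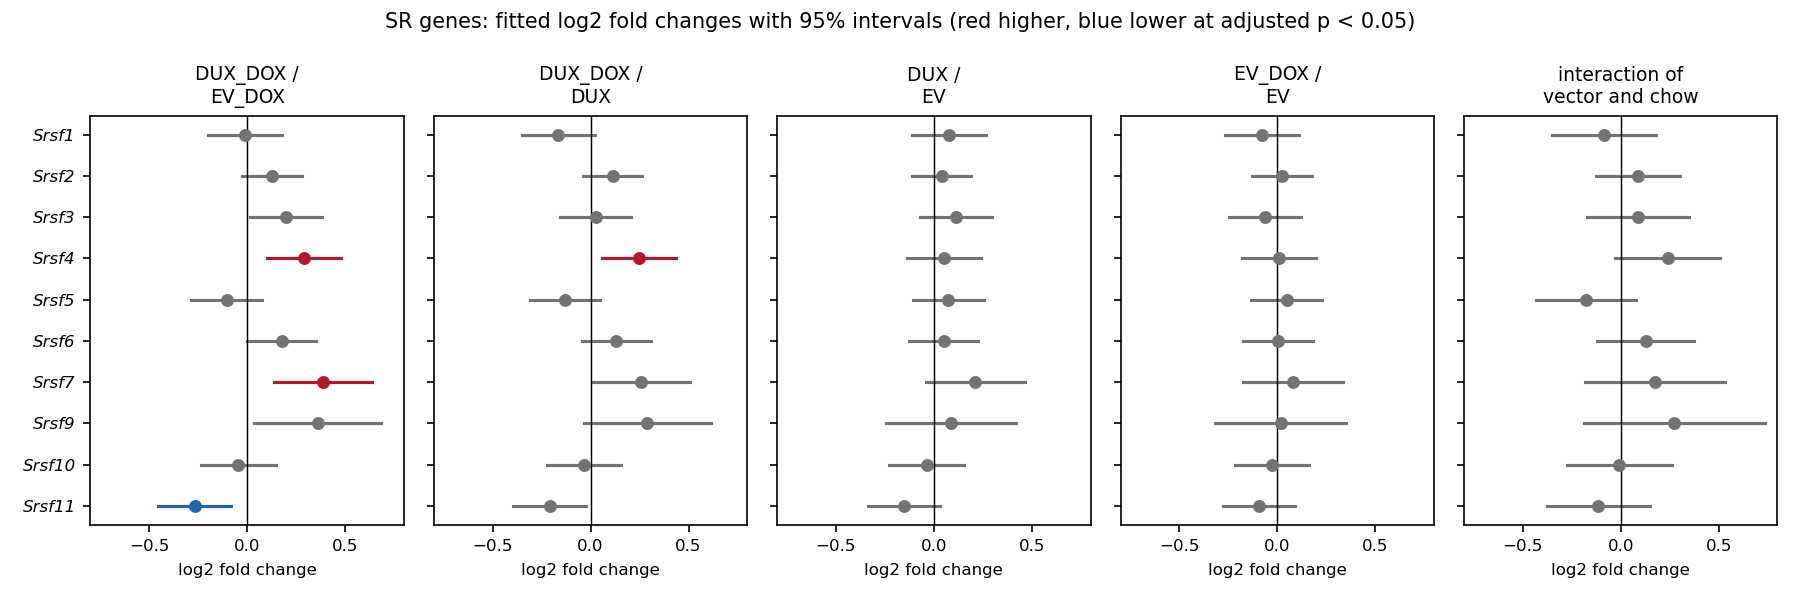
Fitted log2 fold change (horizontal axis) of each SR gene with its 95% interval in the 4 comparisons and the interaction of vector and chow. Red and blue mark genes higher and lower at an adjusted p below 0.05, which are Srsf4 and Srsf7 (higher) and Srsf11 (lower) in DUX_DOX against EV_DOX and Srsf4 (higher) in DUX_DOX against DUX.

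The comparison of DUX_DOX against DUX, doxycycline against normal chow in muscle with the Dux vector, called fewer SR genes. It shares the DUX_DOX libraries with the main comparison and is no separate evidence. Srsf4 rose by 0.25 (SE 0.09, adjusted p = 0.0467), and it was the 1 gene of 10 called, against 29.6% of all genes tested, with 16.5% higher and 13.1% lower. At an unadjusted p below 0.05 there were 3 genes, against 41.5% of all genes. Srsf7 (0.26, adjusted p = 0.113), Srsf9 (0.29, 0.161) and Srsf11 (-0.21, 0.0835) were not called, although their libraries did not overlap. Non-overlap was seen for 4 of the 10 genes, 3 higher and 1 lower, against 48.6% of all genes, with 26.0% higher and 22.6% lower. Srsf3 had an estimate of 0.03 (95% interval -0.16 to 0.21), with DUX at 43.4, 44.6 and 43.4 CPM. The Srsf4 call was lost in 14 of the 18 alternatives, in a range from 0.0199 to 0.167. These were both other scalings, DESeq2, only the groups compared, the replicate block, and leaving out any DUX_DOX library, EV_DOX 2 or 3, DUX 1 or 3, or EV 1 or 2. Srsf7 passed without EV_DOX 1 (0.0409, in a range up to 0.323).

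Without doxycycline, DUX against EV, no SR gene was called in edgeR or in the DESeq2 Wald test, and 0 of the 10 had an unadjusted p below 0.05. Among all genes edgeR called 0% here, with 15.8% at an unadjusted p below 0.05, and DESeq2 called 84 genes. The largest estimates were 0.21 for Srsf7 (95% interval -0.04 to 0.47, adjusted p = 0.392) and -0.15 for Srsf11 (-0.34 to 0.03, adjusted p = 0.393). The groups of both did not overlap, as for 22.9% of all genes (11.3% higher, 11.6% lower), and DUX stood between DUX_DOX and EV in each. For Srsf7 the means were 28.8 ± 2.79 CPM in DUX_DOX, 24.1 ± 1.20 CPM in DUX, 22.0 ± 3.71 CPM in EV_DOX and 20.8 ± 1.03 CPM in EV (SD, n = 3). By its mean EV_DOX, with the empty vector, also stood between DUX_DOX and EV for both genes. Its libraries overlapped those of DUX for both.

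Doxycycline chow alone, EV_DOX against EV, called no SR gene in edgeR or DESeq2, against 0.0392% of all genes in edgeR, and 0 of the 10 had an unadjusted p below 0.05, against 7.83% of all genes. The estimates ran from -0.10 (Srsf11) to 0.08 (Srsf7), and the libraries of the groups overlapped for all 10 genes, against 12.1% of all genes without overlap (5.69% higher, 6.45% lower). The interaction of vector and chow, which asks whether the effect of the Dux vector differed between the chows, was called for 0 of the 10 SR genes in edgeR and in DESeq2, with 0 at an unadjusted p below 0.05, against 10.4% of all genes called (6.97% higher, 3.43% lower) and 26.9% at that unadjusted p. Its estimates were 0.24 for Srsf4 (95% interval -0.03 to 0.51, adjusted p = 0.237), 0.17 for Srsf7 (-0.18 to 0.53) and -0.11 for Srsf11 (-0.38 to 0.15). The changes of the 3 called genes were not shown to differ from those seen on normal chow.

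The SR protein kinase genes Srpk2 and Clk2 had larger fold changes than any SR gene. Of 10 genes for SR kinases and the importer Tnpo3, 2 rose and 0 fell in DUX_DOX against EV_DOX, and the median was 0.00. Among all genes 14.9% rose and 10.3% fell. Srpk2, a cytoplasmic SR kinase (chromosome 5, 23503264 to 23684617, minus strand), had 68.0, 70.5 and 56.7 CPM in DUX_DOX, against 40.1, 43.3 and 37.0 CPM in EV_DOX. It had 42.3, 35.9 and 40.6 CPM in DUX and 41.7, 43.0 and 48.6 CPM in EV. All 3 DUX_DOX libraries were above the 9 others. Srpk2 rose by 0.70 on the log2 scale (SE 0.10, adjusted p = 0.000226), and the gene was also called against DUX (0.72) and in the interaction (0.86, adjusted p = 0.00213), in all alternatives of each. Kmt2e, which overlaps Srpk2 on the other strand, had an estimate of 0.06 (adjusted p = 0.748).

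Clk2, a nuclear kinase of speckles (chromosome 3, 89164795 to 89176921, plus strand), had 28.2, 35.3 and 33.9 CPM in DUX_DOX, against 20.2, 21.1 and 20.4 CPM in EV_DOX. It had 22.6, 22.1 and 20.0 CPM in DUX and 18.4, 22.4 and 19.3 CPM in EV. Again the DUX_DOX libraries were above the 9 others, with a rise of 0.66 on the log2 scale (SE 0.10, adjusted p = 0.000395) against EV_DOX and of 0.59 (adjusted p = 0.000802) against DUX. The interaction, 0.55 (adjusted p = 0.0304), was not called in 9 of 17 alternatives, each of which left out a library (DUX_DOX 2 or 3, EV_DOX 2 or 3, DUX 1, 2 or 3, EV 2 or 3), with adjusted p up to 0.0842. The related kinases were not called in the main comparison: Clk1 had an estimate of -0.02 (adjusted p = 0.899), Clk3 of -0.23 (0.0624, called with RLE factors at 0.0468 and upper-quartile factors at 0.0393) and Clk4 of -0.17 (0.117). For both Clk3 and Clk4 the DUX_DOX libraries were below the 9 others. Clk4 fell against DUX by 0.23 (adjusted p = 0.0339), a call lost without DUX_DOX 1 (0.0540), DUX_DOX 3 (0.108), DUX 1 (0.118) or DUX 2 (0.104). Srpk1 (0.13, adjusted p = 0.397), the muscle kinase Srpk3 (-0.18, 0.168), Dyrk1a (0.15, 0.195), Prpf4b (-0.18, 0.246) and Tnpo3 (0.03, 0.795) were not called either. Irf5, which overlaps Tnpo3 on the other strand, rose by 1.01 (adjusted p = 0.00209).

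**Figure D4:**
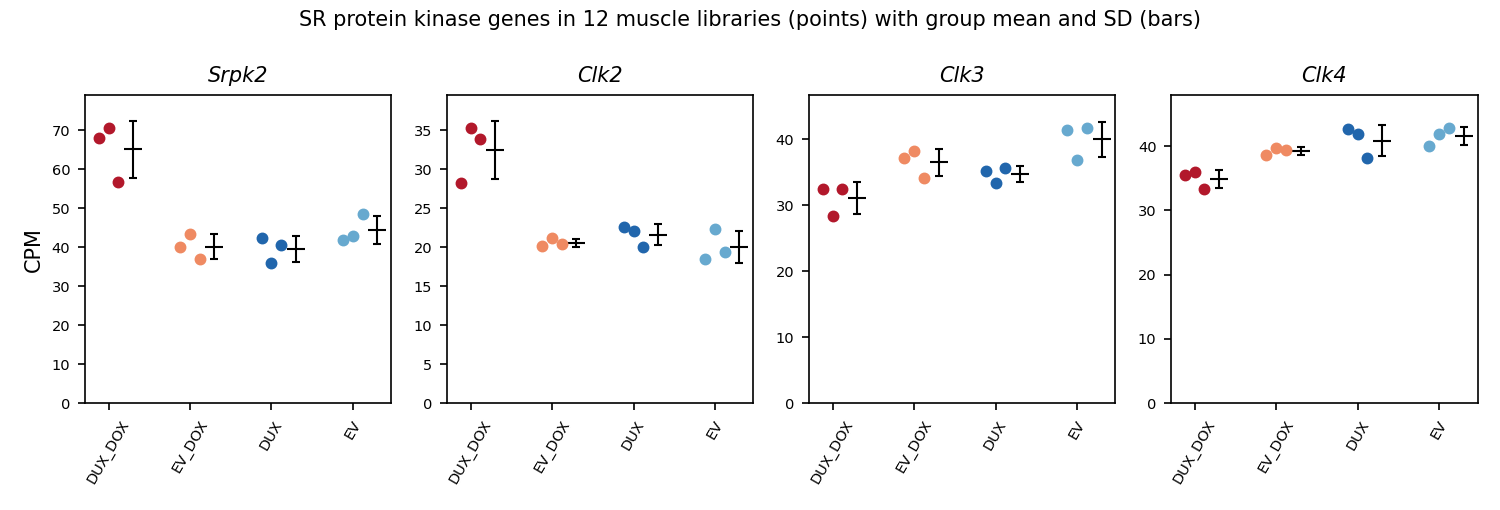
Levels of 4 SR protein kinase genes in CPM (vertical axes, linear from 0, scaled per gene) in the 12 libraries, as points by group, with the group mean and SD. The DUX_DOX points of Srpk2 (56.7 to 70.5 CPM) and Clk2 (28.2 to 35.3 CPM) lie above all others, while those of Clk3 and Clk4 lie below all others.

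Other groups of splicing genes held calls too, in a comparison where 14.9% of all genes rose and 10.3% fell. Of 26 SR-related genes measured, 2 rose and 4 fell in DUX_DOX against EV_DOX (median -0.01). Tra2b, whose protein works with SR proteins on exon enhancers, rose by 0.51 (SE 0.10, adjusted p = 0.00162), with 38.9, 39.4 and 35.8 CPM in DUX_DOX, against 24.0, 27.1 and 29.3 CPM in EV_DOX. Its estimate in DUX against EV was 0.26 (adjusted p = 0.249), and its interaction was not called (adjusted p = 0.258). Rsrp1, a gene for an arginine- and serine-rich protein, fell by 0.55 (SE 0.09, adjusted p = 0.000799), with 243, 256 and 242 CPM in DUX_DOX, against 321, 363 and 402 CPM in EV_DOX. The groups of both were well apart. Luc7l2, a U1-associated splicing factor, fell by 0.45 (adjusted p = 0.00162).

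The hnRNP proteins often oppose SR proteins at exons, and 8 of their 26 genes rose and 0 fell (median 0.18), beside 14.9% higher and 10.3% lower among all genes. Ptbp1, a repressor of many tissue-specific exons, rose by 0.70 (adjusted p = 0.00115), with 35.9, 34.4 and 41.7 CPM in DUX_DOX, against 27.6, 22.2 and 19.0 CPM in EV_DOX. Hnrnph1 rose by 0.62 (adjusted p = 0.000252) and Hnrnpf, its relative, by 0.58 (adjusted p = 0.00348). In DUX against EV Hnrnpf had an estimate of 0.27 (adjusted p = 0.314), and its interaction was not called (adjusted p = 0.284). Of 44 core spliceosome genes 12 rose and 2 fell (median 0.15). They included Snrpa1, a protein of the U2 particle (0.62, adjusted p = 0.00419), Dhx8, a helicase that releases spliced mRNA (0.45, adjusted p = 0.00388), and Sf3b3, a subunit of the branch site complex (0.37, adjusted p = 0.00542), which overlaps Cog4 on the other strand (-0.20, adjusted p = 0.0397).

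Among 16 regulators of muscle splicing, 2 rose and 4 fell (median -0.07). Mbnl1, which promotes adult muscle isoforms, fell by 0.34 (adjusted p = 0.00760), with 269, 243 and 230 CPM in DUX_DOX, against 316, 319 and 306 CPM in EV_DOX. Rbfox1, a muscle and brain splicing factor, fell by 0.45 (adjusted p = 0.00741) and Tia1, a binder of uridine-rich introns, by 0.44 (adjusted p = 0.00604). In DUX against EV, Mbnl1 (-0.25, adjusted p = 0.216) and Tia1 (-0.30, 0.220) were also lower without overlap, as were 11.6% of all genes. Rbfox1 had -0.02 there (adjusted p = 0.942). Tia1 was not called against DUX (adjusted p = 0.0602). The interaction was called for none of these genes (Mbnl1 -0.09, Tia1 -0.14, Rbfox1 -0.43). Of 15 genes of mRNA export and the exon junction complex 2 rose and 0 fell (median 0.21). These were Thoc6, an export complex subunit (0.52, adjusted p = 0.0229), and Eif4a3, the core helicase of the junction complex (0.31, adjusted p = 0.0237). Thoc6 was not called with only the groups compared (0.0535) and without DUX_DOX 1 (0.0832), DUX_DOX 3 (0.0736) or EV_DOX 1 (0.0771), and Eif4a3 not with only the groups compared (0.0756) and without DUX_DOX 3 (0.107) or EV_DOX 1 (0.0808). Thoc2 had an estimate of -0.27 (adjusted p = 0.0567), called with RLE (0.0427) and upper-quartile factors (0.0330) and without DUX_DOX 2 (0.0257).

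Against the 25.3% of all genes called (14.9% higher, 10.3% lower), the share called was 20.0% of the kinase and importer list, 23.1% of the SR-related, 30.8% of the hnRNP, 31.8% of the core spliceosome, 37.5% of the muscle regulator and 13.3% of the export list. Over the alternatives the hnRNP list had 6 to 9 calls, the core list 6 to 15, the SR-related list 4 to 8 and the export list 0 to 4. In DUX_DOX against DUX, where 29.6% of all genes were called (16.5% higher, 13.1% lower), 2 kinase genes rose and 1 fell (30.0% of the list), and 1 SR-related gene rose and 5 fell (23.1%). Of the hnRNP genes 7 rose (26.9%), of the core genes 11 rose and 4 fell (34.1%), of the muscle regulators 2 rose and 2 fell (25.0%), and of the export genes 3 rose (20.0%). In DUX against EV and in EV_DOX against EV none of these 6 lists held a call in edgeR or in DESeq2. An unadjusted p below 0.05 was seen in DUX against EV for 15.8% of all genes. By list it was 2 of 10 kinase and importer, 3 of 26 SR-related, 6 of 26 hnRNP, 6 of 44 core, 4 of 16 muscle regulator and 2 of 15 export genes. In EV_DOX against EV it was 7.83% of all genes, and 0 of 10, 1 of 26, 2 of 26, 5 of 44, 2 of 16 and 0 of 15 in the same order. Beside these changes, 17 of the 20 macrophage markers were higher in DUX_DOX than in EV_DOX (median 1.26) and the summed fibre markers were lower in every DUX_DOX library than in any other. By gene, the 10 fibre markers had a median of -0.29 and 8 had an unadjusted p below 0.05. After adjustment edgeR called 1 higher and 1 lower and DESeq2 called 7, in a range from 1 to 7 over the alternatives. The part of a different mix of cells in the SR and splicing gene levels was not tested.

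**Figure D5:**
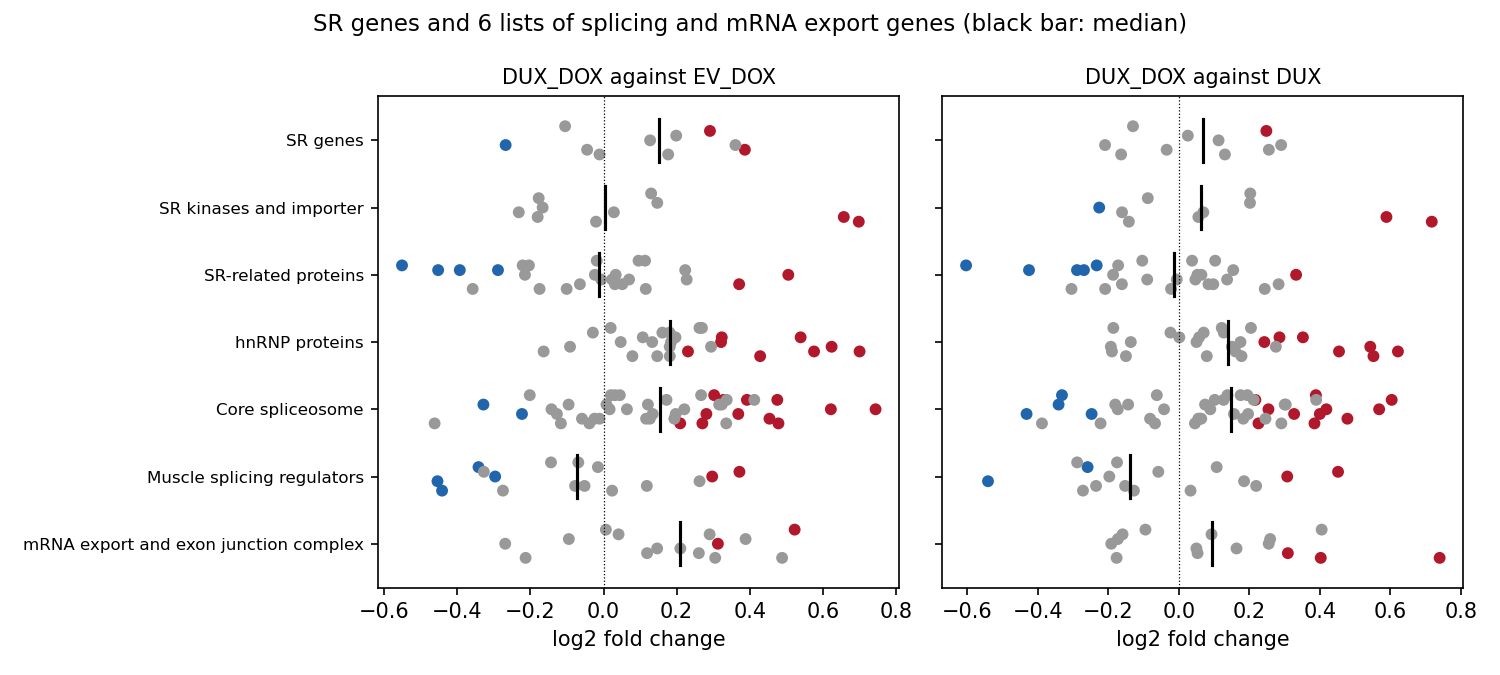
Log2 fold changes (horizontal axis) of the SR genes and of the genes in 6 lists of splicing and mRNA export factors, in DUX_DOX against EV_DOX (left) and against DUX (right), a point per gene with a black bar at the list median. Red and blue points are genes higher and lower at an adjusted p below 0.05, and the SR genes (-0.27 to 0.39 on the left) lie within a narrower range than the kinases (-0.23 to 0.70).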

How the data were processed

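Muscle RNA (200 ng per library) was poly-A enriched and sequenced, per the labels' protocols. The deposited table holds the authors' raw read counts per gene. The submitters' processing notes name bcl2fastq 2.17.1.14, STAR, featureCounts and the build GRCm38, and annotation, strand setting and further versions were not stated in the labels. The lowest mean count of a gene was 10, and lower genes are not analysed here. Columns were mapped to samples by name. Libraries of a group differed beyond counting noise (chi-square per degree of freedom 4.81 to 25.5), so no pair was merged as 1 library; this does not show that they came from separate animals.

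The main test was edgeR's glmQLFTest (version 4.0.16, R 4.3.3), two-sided, fitted to all 12 libraries with 1 mean per group. TMM scaling gave factors of 0.916 to 1.12, filterByExpr left 12751 genes, and p-values were adjusted over these by Benjamini-Hochberg. SEs were derived from the fold change and F, and 95% intervals from SEs with 14.1 degrees of freedom. The steps were tested on simulated data. Alternatives were RLE and upper-quartile factors, the DESeq2 1.42.0 Wald test, no filter, only the groups compared, the replicate number as a block, and leaving out each library. Gene positions, lengths and types came from GENCODE M21, which held 12723 of the 12752 identifiers.

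Members and lists were chosen with earlier results of these data known. The genes named were all 10 members, all SR kinases and, from each splicing list, the 3 genes with the smallest p in DUX_DOX against EV_DOX; Irf5, Cog4, Kmt2e and other neighbours were named for their overlap. Protein sequences were not used here. The principal transcript's length was added as an alternative after seeing the data.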

Additional observations from a re-analysis of the deposited data

Results flagged for a closer look

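In 6 of the splicing genes named above, though in none of the 10 SR genes, the effect of the Dux vector differed between doxycycline and normal chow, by the interaction term of the edgeR fit, which called 10.4% of all genes tested. Apart from the kinases, these genes were named for their small p in DUX_DOX against EV_DOX, which shares libraries with the interaction. Over the full lists the interaction called 2 of 10 kinase and importer genes, 1 of 26 SR-related, 2 of 26 hnRNP, 1 of 44 core spliceosome, 0 of 16 muscle regulator and 0 of 15 export genes. Only the share of the kinase and importer list (20.0%) was above the 10.4% of all genes, and the shares of the other lists were below it. In the lists with 0, an unadjusted p below 0.05 was seen for 2 muscle regulators and 1 export gene, against 26.9% of all genes. DESeq2 called 1 muscle regulator and 0 export genes. On the log2 scale the interaction was 0.86 for Srpk2 (adjusted p = 0.00213), 0.55 for Clk2 (0.0304), -0.69 for Rsrp1 (0.00534), 0.68 for Hnrnph1 (0.00514), 0.60 for Ptbp1 (0.0489) and 0.66 for Dhx8 (0.00882). The calls of Srpk2, Rsrp1, Hnrnph1 and Dhx8 were made in all 17 alternatives, that of Clk2 in 8 and that of Ptbp1 in 4. Ptbp1 was lost with RLE factors (0.0532), upper-quartile factors (0.0629), the replicate block (0.0699) and in 10 of the fits that left out a library, up to 0.123. For Dhx8 the vector had estimates of opposite sign on the chows, 0.45 on doxycycline chow and -0.21 on normal chow, where it was not called (adjusted p = 0.333).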

How the results depend on the processing

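The count of SR genes called in DUX_DOX against EV_DOX was 3 with RLE and upper-quartile factors, without a filter and with the replicate block, 2 in DESeq2 and 0 with only the groups compared, and it ran from 0 (without DUX_DOX 3) to 3 over the fits that left out a library. In DUX_DOX against DUX the count of 1 became 0 with RLE factors, upper-quartile factors, DESeq2, only the groups compared and the replicate block. These settings called 3527 to 4502 of all genes, against 3772 in the main fit. The count of SR genes ran from 0 to 2 over the fits that left out a library. In DUX against EV, EV_DOX against EV and the interaction it was 0 in every alternative run. In DUX_DOX against EV_DOX 180 fold changes of single SR genes were recomputed. Of these, 164 stayed on their side of the threshold, 15 lost the call, 1 gained it and none reversed a call. Only Srsf4, Srsf7 and Srsf11 had a call to lose. They kept it in 12, 14 and 13 of 18 alternatives, in that order. Some of these alternatives left out a DUX or EV library, which is outside the comparison. The cause of the lost calls was not tested. The check of replicate numbers cannot show whether the libraries are paired. Same-numbered libraries had a median correlation of 0.00254 in their deviations from group means (-0.419 to 0.204). Of 12 libraries, 3 correlated best with their own number. This median includes pairs across chows, whereas opposite limbs of a mouse share the chow. Pairs numbered 1 to 3 had -0.112, 0.0943 and 0.00476 for DUX_DOX with EV_DOX. For DUX with EV they had -0.105, 0.176 and 0.117. With 3 libraries a group these values do not decide it, and the main test modelled no pairing. The block moved the calls among all genes of the main comparison from 3224 to 3040. No scaling moved the median of all genes by more than 0.0353 on the log2 scale. Without DUX_DOX 3 the main comparison called 2109 of all genes, and with only the groups compared it called 2376. With 3 libraries a group, a gene that was not called may still have changed by any amount within the interval printed beside it.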
